A study of Caenorhabditis elegans with 80 samples.

Results

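The genes described here are the acyl-CoA synthetases (acs), carnitine palmitoyltransferases (cpt), acyl-CoA dehydrogenases (acdh), enoyl-CoA hydratases (ech) and the hydroxyacyl-CoA dehydrogenase hacd-1 of Caenorhabditis elegans. They were chosen by gene symbol alone, with ech-8 and ech-9 left out, and each gene was read from its probe set with the highest mean signal. The rule found 50 genes among the 17118 genes with a probe set of their own: 23 acs, 6 cpt, 12 acdh, 8 ech and 1 hacd. Whole worms at the mid L4 larval stage, grown in the bacteria-free CeHR medium, were exposed to acrylamide at 100, 500 or 1000 mg/L, to cadmium at 5, 20 or 50 mg/L, or to mercury at 5, 10 or 25 mg/L. These concentrations are called low, mid and high below. Worms were harvested after 4 h or 8 h, together with unexposed controls of each chemical's own series at 0, 4 and 8 h. The 27 groups hold 3 arrays each, except cadmium mid dose at 4 h with 2, which gives 80 arrays. No strain, genotype or sex is given in the labels, and all groups share the medium, the stage at the start and the isolation of polyA RNA from pulverized whole worms. Because the RNA came from whole worms, fewer cells of a type and less RNA per cell cannot be told apart.

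Fatty acids are used only after an acyl-CoA synthetase has joined them to coenzyme A. Carnitine palmitoyltransferases carry the long-chain products into mitochondria, where acyl-CoA dehydrogenases, enoyl-CoA hydratases, hydroxyacyl-CoA dehydrogenases and thiolases shorten the chain in repeated cycles of beta-oxidation. In worms this work is done largely in the intestine, and acs-2 is widely used as a marker of the switch to fat burning in fasting, under the nuclear receptor NHR-49. Some synthetases serve other ends, such as the branched-chain fatty acids handled by acs-1 or the side chains of pheromones handled by acs-7.

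The signal scale was set by the authors on all but 1 array: the mean after trimming 2% at each end lay between 500.1 and 500.2 on 79 arrays and at 214.9 on replicate 1 of the acrylamide 0 h control, and every array was therefore brought to a shared median here. Replicate 1 of cadmium mid dose at 4 h stood apart, with a median correlation of 0.821 with the other cadmium arrays, so results of that group are given without each of its arrays too. Marker genes of intestine, body wall muscle, hypodermis, oocytes and sperm were all measured, with 8 of 9 intestinal, 8 of 8 muscle and 4 of 8 oocyte markers above a signal of 131 on every array. Several values moved at high dose beside the members. The log2 ratio of the 3' to the 5' actin control probe sets, which rises with RNA degradation, went from 0.855 ± 0.0777 (SD, n = 3) in the mercury 4 h control to 1.31 ± 0.129 at high dose, and from 1.01 ± 0.0966 to 1.53 ± 0.127 at 8 h. In acrylamide it went from 0.97 ± 0.095 to 1.31 ± 0.169 at 8 h, and in cadmium from 0.645 ± 0.184 to 1.07 ± 0.308 at 4 h. The same ratio of the Gapdh control probe sets did not rise alike. In mercury it went from 0.0407 ± 0.112 to 0.0562 ± 0.0534 at 4 h and from 0.165 ± 0.0468 to 0.163 ± 0.149 at 8 h. It went from 0.0737 ± 0.064 to -0.0222 ± 0.262 in acrylamide at 8 h, and from 0.00217 ± 0.0943 to 0.113 ± 0.0659 in cadmium at 4 h. The summed signal of 9 intestinal markers was 53960 to 79940 in the mercury 4 h control against 31260 to 50050 at high dose, and 50040 to 60410 against 28170 to 33550 at 8 h. For 8 oocyte markers it was 9817 to 12940 in the mercury 8 h control against 3101 to 4299 at high dose. Of the intestinal markers, 0 rose and 5 fell in high mercury at 4 h and 0 rose and 6 fell at 8 h. Of 8 body wall muscle markers, 0 rose and 4 fell at 4 h and 6 at 8 h, and of 7 hypodermal markers 4 and 3 fell. Of all genes tested, 14% fell in high mercury at 4 h and 14.6% at 8 h, and 9.42% and 17.8% rose. The summed muscle signal at 8 h was 39940 to 48290 in the mercury control against 18280 to 24130 at high dose, 36180 to 43560 against 20280 to 27140 in acrylamide, and 38980 to 44610 against 22080 to 29880 in cadmium.

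Signals below are the authors' array signals on the shared median. A change is a difference of mean log2(signal + 51), with a standard error (SE) from a linear model over all arrays of a series, and folds are on that same scale, so those of dim genes are understated. A gene was called where the adjusted p of limma's moderated test, with Benjamini-Hochberg adjustment over all probe sets tested, was under 0.05. A test needed signals above 131 on at least 3 arrays of the series. By that filter 45 members were tested in all 3 series, cpt-4 only in the acrylamide and cadmium series, and acdh-2 only in the acrylamide series. acs-23, acdh-1 and ech-5 were tested in none. acdh-1, the acyl-CoA dehydrogenase of the propionate shunt, was dim throughout, between 1.73 and 221.5 with 3 of 80 arrays above the filter, so nothing is said about its response. Of the 50 members, 25 were above the filter on all 80 arrays.

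Most of the members that responded did so at mid or high doses, and at 4 h more of them fell than rose in both metals. In acrylamide 0 of 47 tested members were called at low or mid dose at either time, while 0.19%, 1.79%, 0.404% and 2.57% of all tested genes were called at low 4 h, mid 4 h, low 8 h and mid 8 h. At an unadjusted p under 0.05 these counts were 1, 3, 3 and 7. The replicate numbers paired the arrays at low and mid dose at 8 h, and with the number as a block 1 member was called in each. High acrylamide at 4 h raised 3 members and lowered 5, against 3.32% and 3.17% of all genes. At 8 h it raised 5 and lowered 4, against 4.42% and 4.72%. Without high-dose replicate 1 the count at 4 h was 4, and without replicate 3 of either group it was 5. At 8 h it was 5 without control replicate 1.

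In cadmium 0 of 46 members were called at low dose, where 0.678% of all genes were called at 4 h and 0.323% at 8 h, and 0 had an unadjusted p under 0.05 at either time. High cadmium at 4 h raised 2 members and lowered 9, against 3.03% and 4.64% of all genes. At 8 h it raised 2 and lowered 2, against 3.91% and 2.91%. Leaving out any 1 array other than high-dose replicate 2 left 4 or 5 calls at 4 h, and leaving out control replicate 1 or high-dose replicate 1 or 3 left 2 at 8 h. Mid cadmium at 8 h raised acs-2 and lowered acs-1, against 1.72% and 0.452% of all genes. Leaving out any 1 array other than control replicate 3 left 1 call there. Mid cadmium at 4 h raised 2 and lowered 10, against 4.79% and 10.5%, but 2 members were called without its replicate 1 and 21 without its replicate 2, and 5 or 6 without 1 control array. acs-22 shows how far those arrays lay apart, at 130.1 and 809.2.

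In mercury 2 of 45 members were called at low dose at 4 h, acs-14 and acs-22, both lower, against 1.69% of all genes lower. Without control replicate 1 or without low-dose replicate 3 neither was called, and without low-dose replicate 2 or control replicate 3 only 1 was. At 8 h 0 were called, against 0.759% of all genes, with 3 at an unadjusted p under 0.05. Mid mercury at 4 h raised 3 and lowered 15, against 7.3% and 9.66% of all genes, and high mercury at 4 h also raised 3 and lowered 15, against 9.42% and 14%. The mid-dose count at 4 h was 10 without control replicate 1 or mid-dose replicate 2 or 3. Mid mercury at 8 h raised 3 and lowered 8, against 10.6% and 7.75%. High mercury at 8 h raised 5 and lowered 14, against 17.8% and 14.6%. The median change of the tested members was -0.33 in high mercury at 4 h and -0.18 at 8 h, beside -0.05 and 0.01 over all genes. With the actin ratio as a covariate 5 members were called in high mercury at 4 h and 10 at 8 h.

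**Figure D1:**
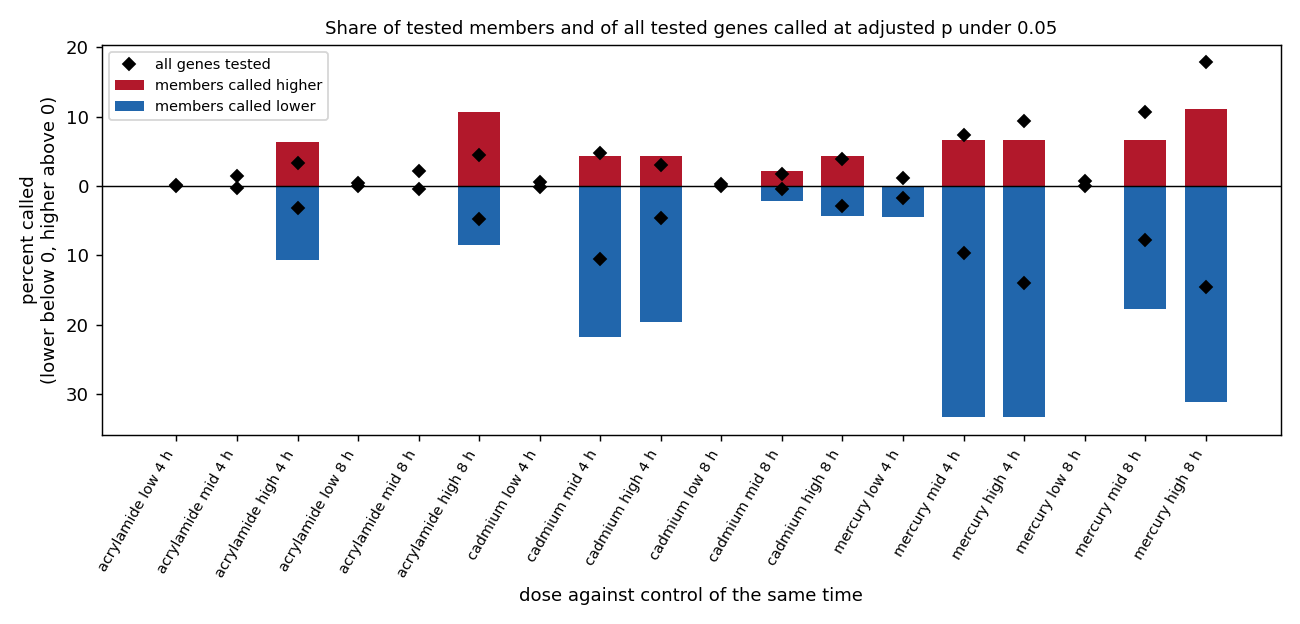
Percent of tested members called higher (red, above 0) or lower (blue, below 0) in each dose comparison, with diamonds for all genes tested in the same direction. The longest blue bars are those of mid and high mercury at 4 h and high mercury at 8 h, and no bar stands at low or mid acrylamide.

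Over all 18 dose comparisons 33 of the 47 members tested in any series were called at least once, or 70.2%, beside 48.3% of all genes tested. The other 14 were called in none. Of the 33, acs-12 alone was called in both directions, and its fall came from mid cadmium at 4 h, where its 2 arrays read 51.64 and 393.7. At high dose of all 3 chemicals, acs-17 rose at both times and acs-2 rose at 8 h. acs-1 fell at both times, and ech-2 and ech-7 fell at 4 h.

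**Figure D2:**
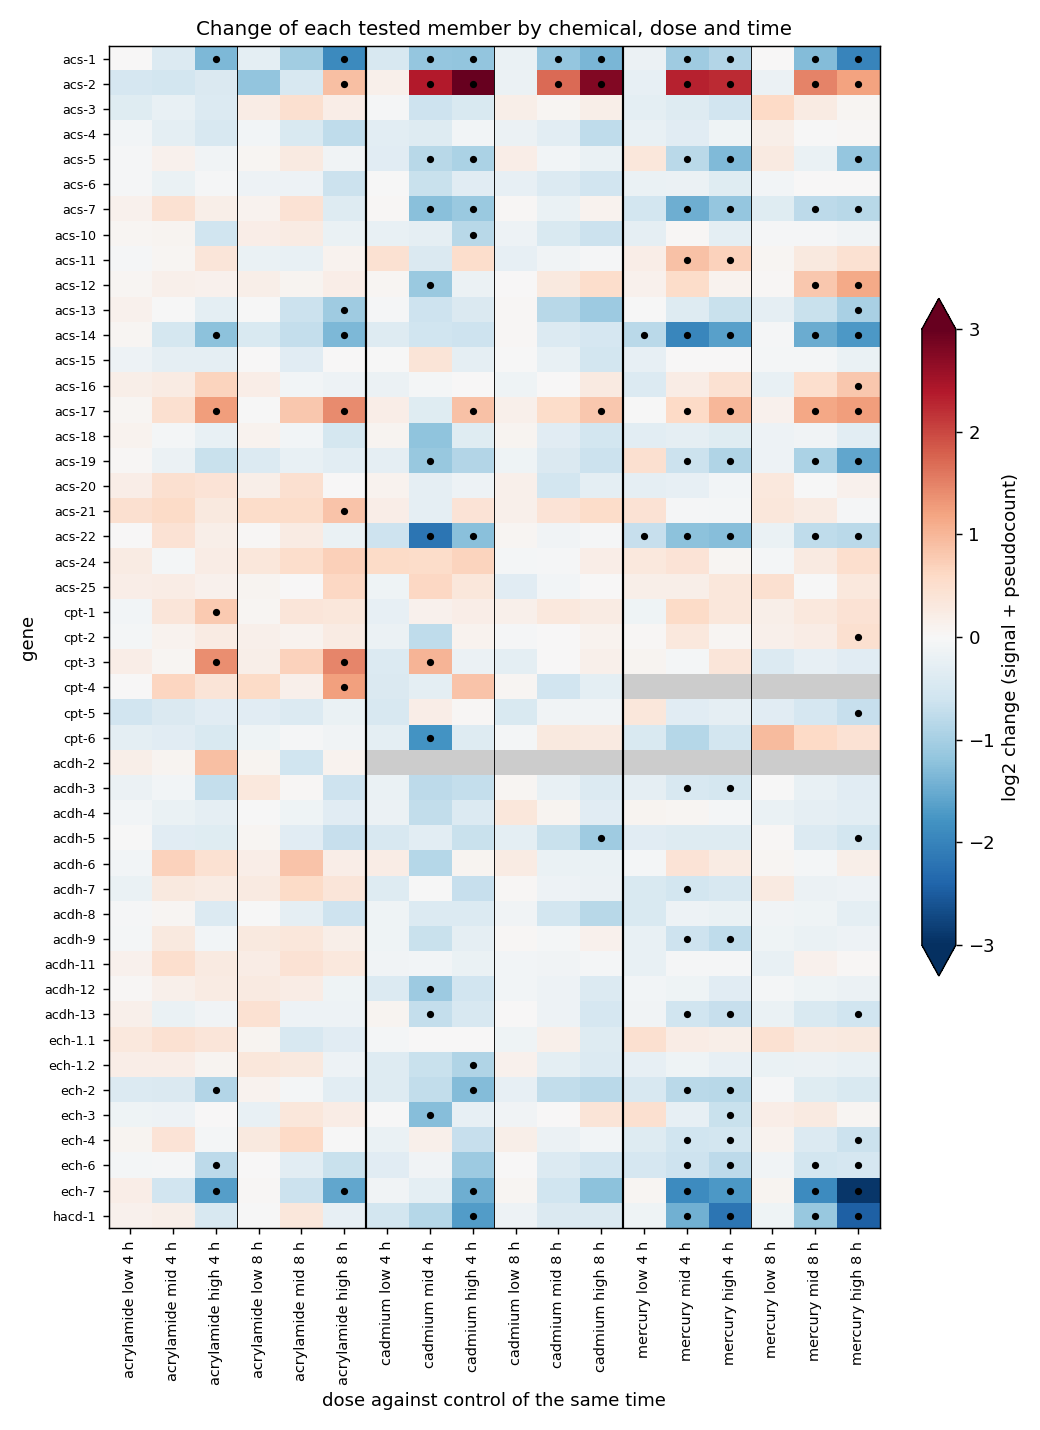
Log2 change of each member tested in any series (rows) in each dose comparison (columns), red for higher and blue for lower than the control of the same time, with black dots for calls and grey where a member was not tested. The darkest red cells belong to acs-2 in cadmium, and the darkest blue to ech-7 and hacd-1 in mercury.

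Among the synthetases acs-2 changed most. In cadmium its signal was 313.5, 232.6 and 259.6 on the 4 h control arrays and 5318, 2892 and 2616 at high dose. All 3 exposed arrays lay above all controls by a wide gap, and the change was 3.45 (SE 0.26, 10.9-fold, adjusted p = 1.9e-09). At 8 h the controls read 614.6, 716.9 and 497.3 and the high-dose arrays 4708, 5787 and 3151, a change of 2.77 (SE 0.26, 6.82-fold, adjusted p = 8.2e-08). At mid dose the arrays read 1822 and 1424 at 4 h (5.23-fold) and 1967, 2316 and 1908 at 8 h (3.22-fold). Low-dose arrays, at 241.5 to 377.4 and 453.3 to 656.5, overlapped the controls.

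In mercury acs-2 rose as well, with no step between mid and high dose. The 4 h controls read 449.6, 244.5 and 345.6, the mid-dose arrays 1578, 2038 and 2084, and the high-dose arrays 1672, 1760 and 1933. Every mid- and high-dose array was above every control, and the changes were 2.32 (SE 0.25, 4.98-fold) and 2.24 (SE 0.25, 4.73-fold, adjusted p = 1.1e-07). At 8 h the controls read 453.3, 263 and 411.4, the mid-dose arrays 848.5, 1314 and 1281, and the high-dose arrays 754.9, 1134 and 892.7. The changes were then 1.49 and 1.21 (SE 0.25 for both, 2.82-fold and 2.31-fold). The calls of acs-2 at high cadmium and high mercury held in every one of the 16 alternatives tried for each.

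Acrylamide gave acs-2 no rise at 4 h, where the high-dose arrays at 183.8, 131.4 and 234.3 overlapped controls at 476.9, 180.6 and 195.9. At 8 h the high-dose arrays, at 943.6, 847.2 and 1147, lay above controls at 511.3, 441 and 549.2 (change 0.9, SE 0.28, adjusted p = 0.046). This call is narrow: leaving out any 1 of the 6 arrays gave an adjusted p between 0.07 and 0.16. The low-dose arrays at 8 h, 195.9, 183.9 and 196, were all below the controls, with a change of -1.18 that was not called. The difference between high and low acrylamide at 8 h was 2.07 (adjusted p = 1.9e-05). A second probe set of acs-2 gave changes of 3.19 and 2.22 in high cadmium, 2.07 and 1.01 in high mercury, and 1.32 (adjusted p = 0.087) in high acrylamide at 8 h.

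**Figure D3:**
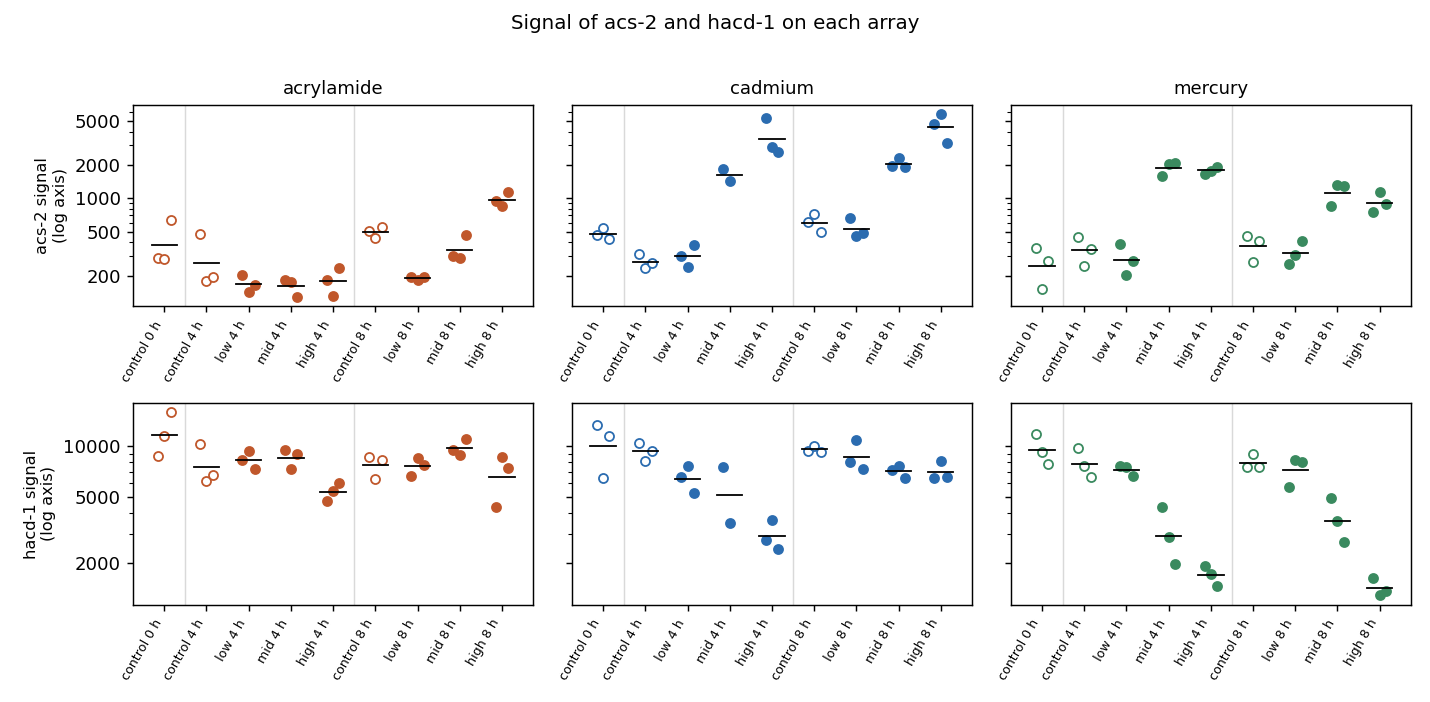
Signal of acs-2 (top) and hacd-1 (bottom) on each array, on log axes, by group within each chemical; open circles are controls, filled circles exposed worms, and lines the group means on the log scale. acs-2 stands highest in cadmium at high dose, where it reaches 5787, and hacd-1 lowest in mercury at high dose, where it falls to 1284.

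acs-17, another acyl-CoA synthetase, was the only member that rose at high dose of all 3 chemicals at both times. In acrylamide at 8 h the controls read 416.4, 564.8 and 538.8 and the high-dose arrays 1134, 1292 and 1981. In mercury at 8 h they read 456.9, 524.4 and 382.7 against 966.6, 1187 and 1341. The exposed arrays lay above the controls in all 6 high-dose comparisons, with changes of 1.25 and 1.42 in acrylamide, 0.87 and 0.81 in cadmium, and 0.99 and 1.26 in mercury at 4 and 8 h. The cadmium calls were narrow: at 4 h the adjusted p was 0.075 without high-dose replicate 1 and 0.13 without control replicate 2, and at 8 h it lay between 0.057 and 0.13 without any 1 array other than control replicate 3. The mercury change at 4 h was 0.79 with the actin ratio as a covariate (adjusted p = 0.053). A second probe set changed by 1.07 to 1.77 in acrylamide, in mercury and in cadmium at 8 h, and by 0.65 (adjusted p = 0.16) in cadmium at 4 h.

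acs-1, which is needed for the use of monomethyl branched-chain fatty acids, fell in the same 6 comparisons. In acrylamide at 8 h the controls read 2778, 2448 and 3061 and the high-dose arrays 574, 564.4 and 1059, a change of -1.90 (SE 0.31, 3.72-fold lower, adjusted p = 0.00015). In cadmium at 8 h they read 3362, 3377 and 2293 against 1070, 1249 and 1044 (-1.37, SE 0.3). In mercury the 4 h controls read 2381, 1918 and 2388 against 1334, 952.7 and 1264, and the 8 h controls 2631, 3063 and 2509 against 576, 766.9 and 622.1. Groups did not overlap in any of these comparisons, and the mercury changes were -0.89 (SE 0.19) and -1.98 (SE 0.19, 3.96-fold lower, adjusted p = 4.8e-09). The second probe set of acs-1 fell in all 6 comparisons too, by 1.14 to 2.34 on the log2 scale. At 4 h the adjusted p reached 0.069 in acrylamide without high-dose replicate 1, and 0.088 and 0.071 in cadmium without control replicate 1 or high-dose replicate 3. The mercury call at 4 h was lost with the actin ratio as a covariate (-0.7, adjusted p = 0.12).

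acs-14 fell in acrylamide and mercury. In acrylamide at 4 h the controls read 1794, 1359 and 1347 and the high-dose arrays 626.1, 621.6 and 555.5, and at 8 h 1631, 1602 and 1731 against 445, 579.3 and 901.6. The exposed arrays were the lower ones throughout, with changes of -1.24 (SE 0.26, adjusted p = 0.0025) and -1.35 (SE 0.26, adjusted p = 0.00086). In mercury the 4 h controls, at 1658, 1689 and 1672, stood above low-dose arrays at 1164, 885.8 and 788.6 and high-dose arrays at 475.8, 439.2 and 599.3. The changes were -0.81 at low dose, -1.96 at mid dose and -1.64 at high dose. At 8 h the change at low dose was -0.04 and not called, and those at mid and high dose were -1.48 and -1.72. In cadmium acs-14 was not called at any dose, with changes of -0.61 and -0.51 at high dose.

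**Figure D4:**
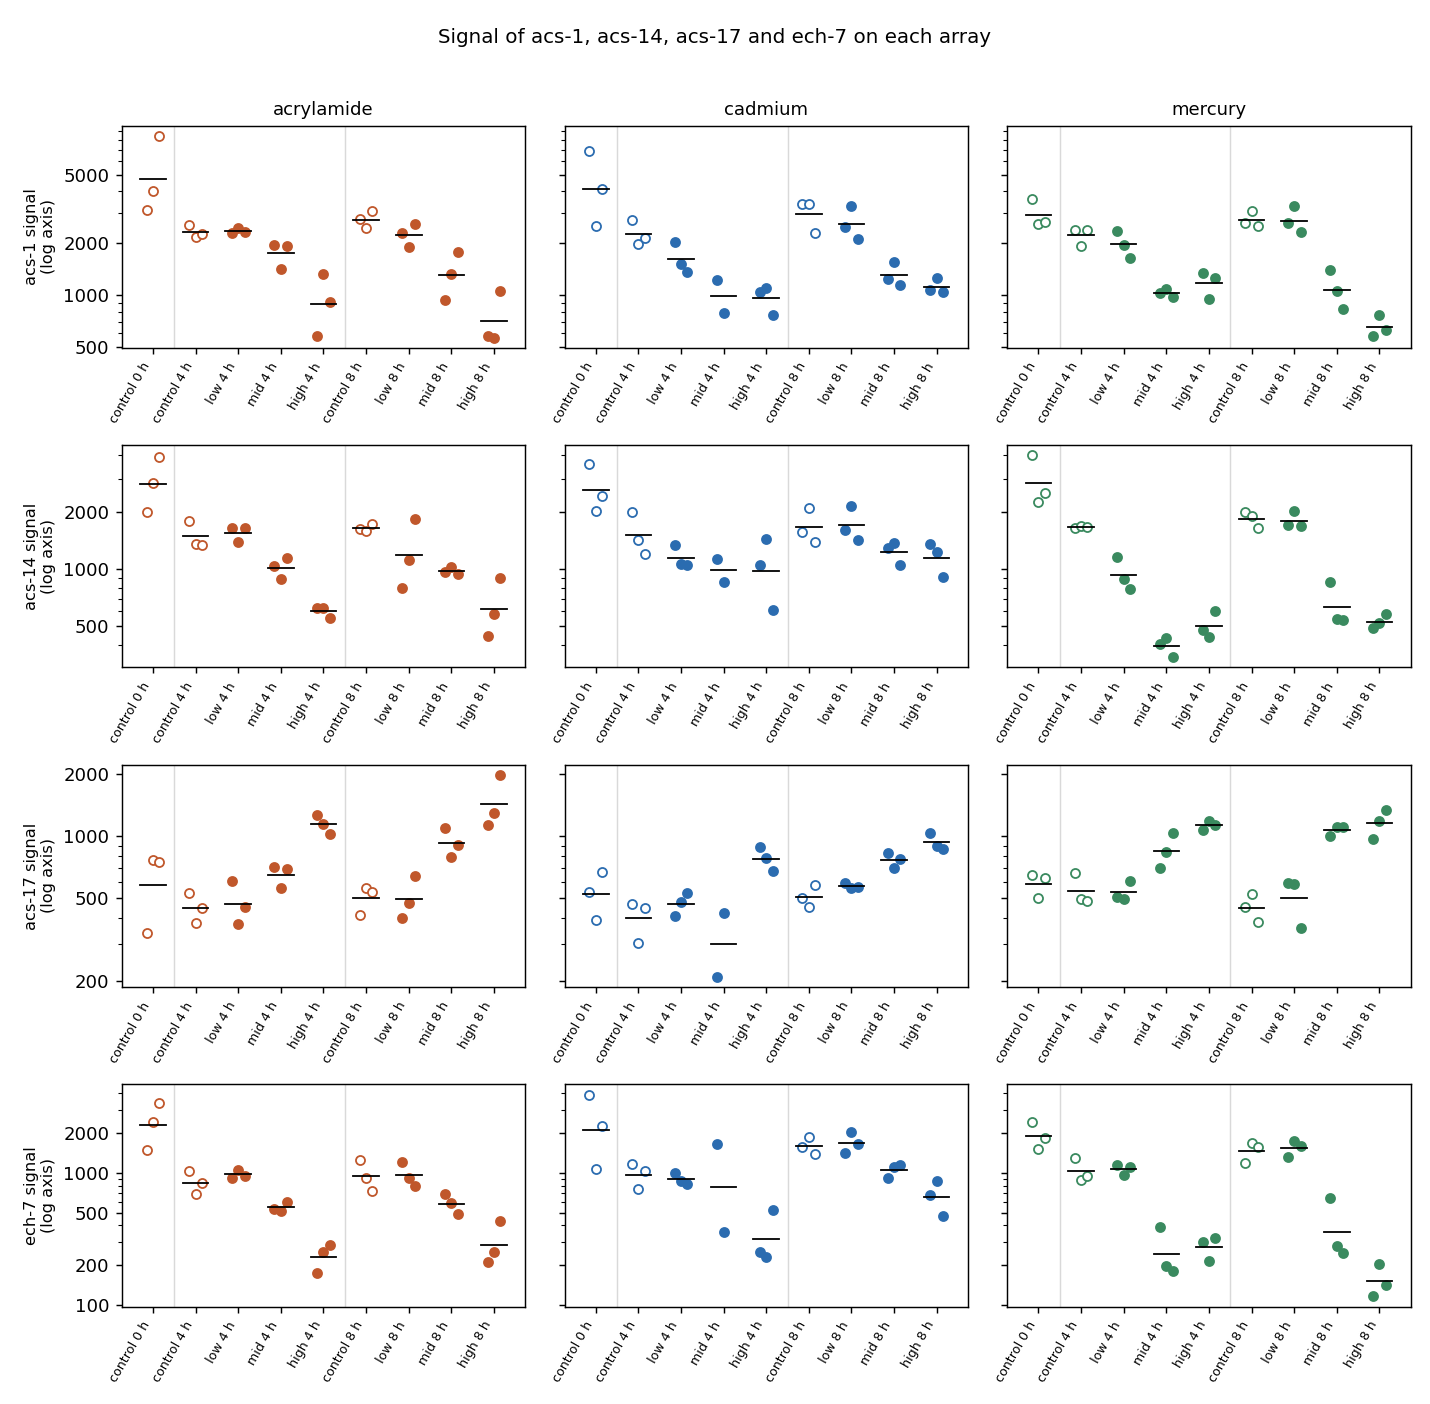
Signal of acs-1, acs-14, acs-17 and ech-7 on each array, on log axes, by group within each chemical; open circles are controls, filled circles exposed worms, and lines the group means on the log scale. The exposed arrays of acs-1 lie below the controls at high dose in all 3 chemicals, and those of acs-17 above them.

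Other synthetases were called in the metals and not in acrylamide, though not all of these changes differed between chemicals by limma's test. Between mercury and acrylamide at high dose, acs-22 and acs-5 differed at 4 h (adjusted p = 0.025 and 0.04). At 8 h they did not (adjusted p = 0.62 and 0.08). acs-7 did not differ at 4 or 8 h (adjusted p = 0.1 and 0.81), nor did acs-19 (adjusted p = 0.072 at 8 h). acs-22, a homologue of mammalian fatty acid transport proteins, read 1969, 1806 and 1692 in the mercury 4 h control and 744.8, 808.1 and 637.4 at high dose, a change of -1.27 (SE 0.16, adjusted p = 5.9e-07). It fell at all 3 mercury doses at 4 h (-0.7, -1.24 and -1.27) and at mid and high dose at 8 h (-0.77 and -0.8). Its fall in high cadmium at 4 h (-1.25, adjusted p = 0.028) reached an adjusted p between 0.05 and 0.11 without any 1 array other than high-dose replicate 2, and 0.18 with the actin ratio as a covariate. acs-5 fell in high mercury from 1463, 850.9 and 970.3 to 340.5, 392.3 and 463.9 at 4 h (-1.32) and from 773.7, 730.7 and 898.1 to 268.6, 328.8 and 389.7 at 8 h (-1.17). Both of these acs-5 calls in mercury were lost with the actin ratio as a covariate, with adjusted p = 0.11 and 0.24. The acs-22 call in high mercury at 8 h was lost in that fit too (adjusted p = 0.27). In high cadmium acs-5 fell at 4 h (-0.94, adjusted p = 0.024). That call was lost in 7 of 16 alternatives, the actin ratio as a covariate among them, with an adjusted p of up to 0.15.

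acs-19, an acetyl-CoA synthetase, fell in high mercury from 3876, 3128 and 2659 to 1609, 1551 and 1852 at 4 h (-0.91) and from 4231, 4802 and 4285 to 1094, 1695 and 1720 at 8 h (-1.56, SE 0.21, 2.94-fold lower). The groups did not overlap at either time. acs-7, which activates the side chains of ascaroside pheromones, fell in high mercury by 1.17 on the log2 scale at 4 h and by 0.84 at 8 h, and in high cadmium at 4 h by 1.11, from control signals of at most 229.5. acs-13 fell in acrylamide (-1.07) and mercury (-0.97) at 8 h, and acs-10 in high cadmium at 4 h (-0.83). The acs-10 arrays there, at 257.6, 609.7 and 312.9, overlapped controls at 609.1, 745.8 and 742.6. The calls of acs-7, acs-10 and acs-19 were not followed through the alternatives. The count of calls in high cadmium at 4 h, given above, fell without most single arrays. The acs-13 call was lost in acrylamide without control replicate 1 or high-dose replicate 2 or 3 (adjusted p between 0.053 and 0.23), and in mercury without high-dose replicate 1 or control replicate 2 (adjusted p = 0.079 and 0.056). The mercury change was -0.52 with the actin ratio as a covariate (adjusted p = 0.42). In high cadmium at 8 h acs-13 changed by -1.08 and was not called (adjusted p = 0.071). A second probe set of acs-13 changed at 8 h by -0.72 in acrylamide (adjusted p = 0.21) and by -1.11 in cadmium (adjusted p = 0.003). In mercury that probe set changed by -0.62 at 4 h (adjusted p = 0.021) and by -1.13 at 8 h (adjusted p = 4.4e-05).

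A few synthetases rose late or in 1 chemical. acs-12 read 164.6, 259.5 and 228.6 in the mercury 8 h control and 393, 597.5 and 642.1 at high dose, a change of 1.14 (SE 0.23, adjusted p = 0.00035), after 0.81 at mid dose. acs-16 read 219.2, 192.1 and 229.9 against 366.5, 438.7 and 436.3 in the same comparison (0.81, adjusted p = 0.0071), and with the actin ratio as a covariate that change was 0.75 (adjusted p = 0.15). acs-11 rose in mercury at 4 h at mid (0.89) and high dose (0.68), where the arrays overlapped and the call was lost without control replicate 1 or 2 or high-dose replicate 1 (adjusted p between 0.076 and 0.12). Its high-dose change with the actin ratio as a covariate was 0.82 (adjusted p = 0.092). acs-21 rose in high acrylamide at 8 h (0.85, adjusted p = 0.04). This gene was dim, with 8 of 27 control arrays above the filter and no array above 201.8. Its call was not followed through the alternatives. acs-3, acs-4, acs-6, acs-15, acs-18, acs-20, acs-24 and acs-25 were called in no dose comparison.

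Of 6 carnitine palmitoyltransferases, 2 rose at each time in high acrylamide, beside 3.32% and 4.42% of all genes at 4 and 8 h. In high cadmium 0 were called, where 3.03% and 3.91% of all genes rose and 4.64% and 2.91% fell. In high mercury at 4 h 0 of 5 were called, where 9.42% of all genes rose and 14% fell. At 8 h 1 rose and 1 fell, beside 17.8% and 14.6%. cpt-3, a homologue of the outer-membrane enzyme, read 159.7, 25.41 and 88.33 in the 4 h control and 256, 320.4 and 304 at high dose, and 144.8, 85.78 and 114.6 against 292, 535 and 405.2 at 8 h. All high-dose arrays were above the controls at both times, with changes of 1.39 (SE 0.34, adjusted p = 0.01) and 1.46 (SE 0.34, adjusted p = 0.006). Without control replicate 2, the dim array of 25.41, the 4 h change was 1.00 (adjusted p = 0.11). In mercury and in high cadmium cpt-3 was not called, with changes between -0.4 and 0.37. It was called higher in mid cadmium at 4 h, where its 2 arrays read 305.3 and 151 against controls at 134.1, 95.56 and 32.64.

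cpt-1, the outer-membrane transferase that commits long-chain acyl groups to mitochondria, read 1211, 765.3 and 821.1 in the acrylamide 4 h control and 1787, 1600 and 1482 at high dose (0.79, SE 0.24, adjusted p = 0.045). That call was lost without control replicate 2 or 3 or without any 1 high-dose array, with adjusted p between 0.078 and 0.18, and with the actin ratio as a covariate (adjusted p = 0.06). In the other high-dose comparisons cpt-1 changed by 0.2 to 0.43 and was not called. cpt-4 rose in high acrylamide at 8 h, from 15.26, 78.95 and 40.2 to 254.3, 153.7 and 108.8 (1.22, adjusted p = 0.027). Without control replicate 1 or 3, or without high-dose replicate 1 or 2, its adjusted p lay between 0.067 and 0.16, and with the actin ratio as a covariate it was 0.052. Tests of the difference between chemicals were not passed by cpt-1 or cpt-4, with adjusted p of at least 0.25. In high mercury at 8 h cpt-2, the homologue of the inner-membrane enzyme, rose by 0.48 (adjusted p = 0.036) and cpt-5 changed by -0.69 (adjusted p = 0.0056). Neither call was followed through the alternatives. cpt-6 was called only in mid cadmium at 4 h, where its 2 arrays read 17.17 and 110.9.

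Every call among the acyl-CoA dehydrogenases was a fall in a metal. In mercury 4 of 10 fell at mid and 3 at high dose at 4 h, beside 9.66% and 14% of all genes. At 8 h 0 and 2 fell, beside 7.75% and 14.6%. In cadmium 2 of 10 fell at mid dose at 4 h and 1 at high dose at 8 h, beside 10.5% and 2.91%. The family's median change at high dose was -0.44 and -0.38 in cadmium and -0.36 and -0.23 in mercury at 4 and 8 h. Over all genes it was -0.13, -0.12, -0.05 and 0.01. acdh-13 fell in high mercury at both times (-0.69 and -0.6) and acdh-3 and acdh-9 at 4 h (-0.52 and -0.76). The calls of these genes were not followed through the alternatives. acdh-5 fell at 8 h in high cadmium, from 632.8, 451.4 and 585.4 to 243.3, 310.3 and 175.2 (-1.06, SE 0.29, adjusted p = 0.022). In mercury it went from 364.2, 307.8 and 525.8 to 234.3, 285.4 and 231.5 (-0.55, adjusted p = 0.012). The cadmium call was lost without replicate 1 or 3 of either group (adjusted p between 0.064 and 0.14), and the mercury call without control replicate 3 (adjusted p = 0.13) and with the actin ratio as a covariate (-0.7, adjusted p = 0.06). acdh-2, acdh-4, acdh-6, acdh-8 and acdh-11 were called in no comparison, and acdh-11, which limits fat desaturation in warm worms, changed by -0.23 to 0.5 over the 18.

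The enoyl-CoA hydratases fell wherever they were called. ech-7 read 1026, 696.3 and 833.6 in the acrylamide 4 h control and 173.1, 252 and 283.5 at high dose (-1.66, SE 0.27, 3.15-fold lower), and 1244, 914.3 and 729.2 against 210.7, 250.6 and 429.9 at 8 h (-1.56, SE 0.27). In mercury it read 1285, 887.6 and 953.2 against 298.3, 213.3 and 321.4 at 4 h and 1185, 1686 and 1577 against 115.9, 204.4 and 142.3 at 8 h. Every high-dose array was below every control, and the mercury changes were -1.73 (SE 0.26) and -2.91 (SE 0.26, 7.51-fold lower, adjusted p = 2.2e-09). In cadmium ech-7 fell at 4 h (-1.47, adjusted p = 0.025). That call was lost without control replicate 1 or 3 or high-dose replicate 1 or 2, with adjusted p between 0.078 and 0.12, and at 8 h the change of -1.23 was not called (adjusted p = 0.073).

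ech-2 fell at high dose in all 3 chemicals at 4 h. The cadmium controls read 1261, 1381 and 1023 and the high-dose arrays 549, 644.1 and 275.9 (-1.30, SE 0.27, adjusted p = 0.0029). The changes in acrylamide and mercury were -0.88 and -0.84, the first with an adjusted p between 0.056 and 0.13 without replicate 1 or 3 of either group. With the actin ratio as a covariate the mercury change was -0.61 (adjusted p = 0.22), and under the authors' scaling the acrylamide change was -0.77 (adjusted p = 0.16). ech-6, the enoyl-CoA hydratase of the propionate shunt, read 4544, 3983 and 4274 in the mercury 4 h control and 2178, 2540 and 2633 at high dose (-0.79, SE 0.17, adjusted p = 0.00099). It fell in mercury at mid and high dose at both times and in high acrylamide at 4 h (-0.79, adjusted p = 0.026), and was not called in cadmium (-1.09 and -0.58 at high dose). The acrylamide call was lost without replicate 1 or 3 of either group (adjusted p between 0.059 and 0.21). With the actin ratio as a covariate the mercury changes at high dose were -0.36 at 4 h and -0.01 at 8 h, and neither was called. At 8 h the call was also lost without control replicate 1 or 2 or high-dose replicate 1 (adjusted p between 0.069 and 0.095). ech-4 fell in high mercury by 0.56 and 0.64 on the log2 scale at 4 and 8 h, and ech-1.2, the homologue of a trifunctional protein subunit, fell in high cadmium at 4 h (-0.9). Neither gene was followed through the alternatives.

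hacd-1, the hydroxyacyl-CoA dehydrogenase, was one of the members that fell furthest in mercury. The 4 h controls read 9756, 7654 and 6573, the mid-dose arrays 4341, 2847 and 1971, and the high-dose arrays 1915, 1729 and 1457. The 8 h controls read 7552, 8953 and 7525, the mid-dose arrays 4872, 3557 and 2693, and the high-dose arrays 1622, 1284 and 1371. Mid- and high-dose arrays all lay below the controls, and high-dose arrays below mid-dose arrays. The high-dose changes were -2.19 (SE 0.23, 4.56-fold lower, adjusted p = 4.3e-08) and -2.45 (SE 0.23, 5.47-fold lower, adjusted p = 4.4e-09).

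In high cadmium at 4 h hacd-1 fell from 10490, 8166 and 9411 to 2758, 3623 and 2417 (-1.67, SE 0.3, 3.18-fold lower, adjusted p = 0.00053). At 8 h the cadmium arrays, at 6427, 8187 and 6531, were again below controls at 9404, 9982 and 9247, but the change of -0.44 was not called (adjusted p = 0.44). In acrylamide it was not called at any dose, with -0.49 and -0.24 at high dose. The 3 calls at high dose held in all 16 alternatives tried for each, the actin ratio as a covariate among them.

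The responses to the 3 chemicals differed in few members when the difference itself was tested, in 1 model over all 80 arrays with 48 members tested. The chemicals were given at different concentrations, so each difference is one between these exposures. At 4 h the high-dose change of acs-2 was larger in cadmium than in acrylamide by 3.89 (SE 0.38, adjusted p = 4.4e-11) and larger in mercury than in acrylamide by 2.68 (adjusted p = 1e-06). acs-22 differed between cadmium and acrylamide by -1.43 and between mercury and acrylamide by -1.45, cpt-3 between cadmium and acrylamide by -1.57, and acs-5 and hacd-1 between mercury and acrylamide by -1.22 and -1.70. These are 3 of 48 members for cadmium against acrylamide, beside 2.19% of all genes, and 4 of 48 for mercury against acrylamide, beside 3.01%.

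Between the metals 0 members differed at 4 h, beside 1.84% of all genes, with 2 at an unadjusted p under 0.05 in limma. At 8 h 4 differed, beside 3.75%: the change in cadmium was above that in mercury by 1.56 for acs-2, 1.21 for acs-14, 1.68 for ech-7 and 2.01 for hacd-1 (adjusted p = 0.0075, 0.038, 0.029 and 0.00016). Cadmium and acrylamide differed at 8 h in acs-2 alone (1.87, adjusted p = 0.00078), beside 2.65% of all genes. Mercury and acrylamide differed in cpt-3 (-1.80) and hacd-1 (-2.21, adjusted p = 1.7e-05), beside 3.62%.

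High dose was also set against low dose. In mercury 13 of 45 members differed at each time, beside 15.4% of all genes at 4 h and 29.5% at 8 h. acs-2, acs-16 and acs-17 were higher at high dose at both times. acs-1, acs-5, acs-14, acs-19, acs-22, ech-7 and hacd-1 were lower at both. In acrylamide 6 of 47 differed at 4 h and 8 at 8 h, beside 4.84% and 8.38%. In cadmium only acs-2 differed at 4 h (3.30, adjusted p = 3.2e-08), beside 1.18%, and acs-2 (2.95) and acs-1 (-1.17) at 8 h, beside 3.6%. The change at high dose differed between 8 and 4 h in 1 member, acs-1 in mercury, beside 0.834% of all genes. In acrylamide and cadmium 0 members differed between the times, beside 0% and 0.234% of all genes, with 2 and 4 at an unadjusted p under 0.05 in limma.

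The members also moved in worms that were never exposed, over the 8 h that followed the mid L4 stage. Taking the mean of the 3 series, 9 of 48 members rose and 14 fell between 0 and 4 h, beside 13.1% and 22.7% of all genes. Between 4 and 8 h 10 rose and 14 fell, beside 11.4% and 16%. Within single series fewer were called. From 0 to 4 h 2 rose and 4 fell in the acrylamide series, beside 4.27% and 3.71% of all genes. In cadmium 6 and 0 did, beside 5.47% and 1.76%, and in mercury 7 and 5, beside 9.77% and 7.62%. From 4 to 8 h the counts were 0 and 0 in acrylamide, beside 0.127% and 0.095%. They were 1 and 4 in cadmium, beside 3.74% and 5.19%, and 2 and 6 in mercury, beside 4.75% and 9.67%. The labels describe the 0 h control as a single flask, so its 3 arrays may share a culture. acs-18 rose by 1.5 (SE 0.2) from 0 to 4 h and by 0.64 from 4 to 8 h: in the mercury series it read 133.3, 275.3 and 151.2 at 0 h, 647, 752.4 and 553.2 at 4 h, and 817.5, 961.7 and 788.4 at 8 h. acs-6, acdh-4, acdh-5 and acdh-8 rose in both intervals as well, and acs-10 in the first (1.10).

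Other members fell as the controls aged. ech-7 fell by 1.11 on the log2 scale from 0 to 4 h, acs-19 by 0.98, acs-14 by 0.8 and acs-1 by 0.75. acs-20, a paralogue of acs-22 that is needed for the barrier of the cuticle, read 2037, 1607 and 1679 at 4 h and 840, 656.7 and 534.6 at 8 h in the mercury series, and fell by 1.14 (SE 0.17, adjusted p = 4.4e-07) over the 3 series. acdh-6 first rose (0.97) and then fell (-1.28), and cpt-6 fell in both intervals (-0.53 and -1.01). acs-2 rose between 4 and 8 h by 0.66 (SE 0.16, adjusted p = 0.00092). Of these, acs-6, acs-18, acs-20, acdh-4, acdh-6 and acdh-8 were called in no dose comparison. acs-13 and acdh-5 rose in controls between 4 and 8 h (0.74 and 0.67) and were called lower at high dose at 8 h. acs-2 rose in controls too and was called higher. The summed oocyte markers read 5028 to 5439 in the mercury 4 h control, 9817 to 12940 at 8 h, and 3101 to 4299 at high dose at 8 h. The part of change with time in the dose comparisons was not tested.

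**Figure D5:**
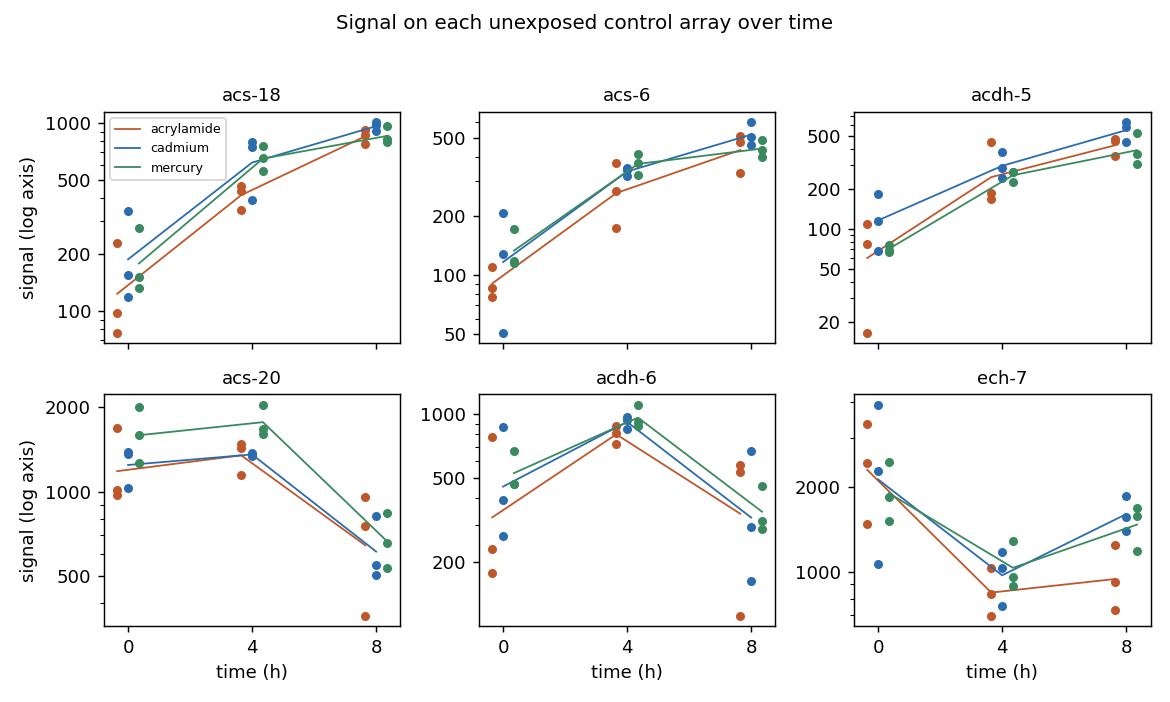
Signal of 6 members on each unexposed array at 0, 4 and 8 h, on log axes, with lines through the group means of each chemical's series on the log scale; points are shifted sideways by series. acs-18, acs-6 and acdh-5 climb in all 3 series, acs-20 and acdh-6 drop between 4 and 8 h, and ech-7 drops between 0 and 4 h.

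Lists of other genes around fat oxidation were read at high dose. In the order acrylamide 4 and 8 h, cadmium 4 and 8 h and mercury 4 and 8 h, 3.17%, 4.72%, 4.64%, 2.91%, 14% and 14.6% of all genes tested fell, and 3.32%, 4.42%, 3.03%, 3.91%, 9.42% and 17.8% rose. Of 8 thiolases, electron transfer and ketone body genes, 0 rose in any high-dose comparison. In that order 1, 1, 2, 2, 4 and 4 fell. sur-5, a homologue of acetoacetyl-CoA synthetase, fell in all 6, by 0.96 on the log2 scale in cadmium at 4 h to 2.06 in acrylamide at 8 h. daf-22, the peroxisomal thiolase, fell in high cadmium at both times (-1.39 and -1.04) and in mercury at 4 h (-1.43), and kat-1, the mitochondrial thiolase, fell in mercury (-0.52 and -0.56). The median change of the 8 lay between -0.51 and -0.21, beside -0.13 to 0.01 over all genes.

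Of 11 genes of propionate handling, 0 rose and 3 fell in mercury at 4 h, and 2 rose and 4 fell at 8 h. In acrylamide 3 and 2 fell at 4 and 8 h, and in cadmium 2 and 0. mce-1, the methylmalonyl-CoA epimerase, fell in all but cadmium at 8 h, by 0.74 to 1.01 on the log2 scale. nhr-68, a nuclear receptor that turns on the propionate shunt, fell in high cadmium at 4 h (-1.39) and in mercury (-1.93 and -2.02). Of 9 regulators of lipid genes, 0 were called in acrylamide, in cadmium or in mercury at 4 h, with 0 to 2 at an unadjusted p under 0.05 in limma, while 2 rose and 2 fell in mercury at 8 h. nhr-49 itself changed by -0.56 to 0.39 and was not called. mdt-15, a Mediator subunit that acts with NHR-49, fell in mercury at 8 h (-0.55, adjusted p = 0.0049).

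Among 9 lipases and lipid release genes, 8 of them tested in the metals, 0, 1, 1, 1, 1 and 1 rose and 4, 4, 2, 1, 3 and 4 fell in the same order. lipl-1, a lysosomal lipase of fasting worms, fell in all 6 high-dose comparisons, by 1.11 on the log2 scale in cadmium at 8 h to 3.21 in mercury at 4 h. fil-1, a lipase induced by fasting, rose in both metals (1.76 and 2.33 in cadmium, 2.35 and 2.48 in mercury) and fell in acrylamide (-0.94 and -1.14). Of 14 genes of fatty acid synthesis, 1, 0, 0, 0, 1 and 1 rose and 2, 3, 5, 2, 7 and 8 fell. elo-5, an elongase that makes the branched-chain fatty acids handled by acs-1, fell in all 6, with changes from -1.26 in cadmium at 8 h to -3.84 in mercury at 8 h (SE 0.41, adjusted p = 3.5e-08).

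The part of the intestinal, muscle, hypodermal and oocyte markers in these changes was not tested. In high cadmium at 8 h acs-2 stood 6.82-fold above its control. There 2 of 9 intestinal markers rose and 0 fell, beside 3.91% and 2.91% of all genes. In high cadmium at 4 h 0 rose and 1 fell, beside 3.03% and 4.64%. In high acrylamide at 4 h 0 rose and 2 fell, beside 3.32% and 3.17%. In acrylamide at 8 h 0 rose and 4 fell, beside 4.42% and 4.72%. The summed signal of the intestinal markers was 52180 to 63460 in the cadmium 8 h control against 40540 to 55660 at high dose. In acrylamide at 8 h it was 45790 to 52430 in the control against 25800 to 38920. At 4 h it was 54240 to 69560 against 32220 to 52010 in cadmium, and 48280 to 67110 against 35600 to 46420 in acrylamide. In cadmium at 4 h the summed muscle signal was 44100 to 52530 in the control against 21890 to 35100 at high dose. The summed hypodermal signal there was 15820 to 21330 against 7976 to 11950. Of the 8 oocyte markers, 7 fell in acrylamide, 8 in cadmium and 7 in mercury at 8 h, beside 4.72%, 2.91% and 14.6% of all genes. Of the 50 members, 18 were read from probe sets marked as matching several transcripts, acs-5, acs-19, acs-22, cpt-1, ech-2 and ech-6 among them, and their values may include related genes.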

How the data were processed

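PolyA RNA of 80 whole-worm samples was hybridised to Affymetrix C. elegans arrays. The deposited intensity of each probe set is a linear MAS5 signal, per the submitters' processing notes, and the authors scaled each array; array version, genome build and software version are not given in the sources used here. Of 22625 probe sets, 77 controls were left out, and the annotation table gave 20766 of the rest 1 gene symbol, 887 several and 895 none; genes were named only from the first kind, and all 50 members matched the RefSeq table of WBcel235. No per-sample column was left unused. Signals were brought to a shared array median of 202.9 and tested as log2(signal + 51), 51 being the 20th percentile of the deposited signals. A probe set was tested in a series where at least 3 arrays passed 131, the 40th percentile, which left 16542 (acrylamide), 16225 (cadmium) and 15886 (mercury). limma 3.58.1 in R 4.3.3 (lmFit, eBayes with trend) was fitted to 1 mean per group within each series, and to all 80 arrays (17855 probe sets) for differences between chemicals and the mean of the controls, with Benjamini-Hochberg adjustment within each comparison and calls at an adjusted p under 0.05. Precision is limited by 3 arrays a group. Nothing in the labels says that replicates were separate cultures beyond exposures made in triplicate, so the tests weigh changes against array-to-array spread, which may be technical. Within 8 of the 18 dose comparisons the replicate numbers paired the arrays, by deviations from the group means that correlated above 0.1 in every pair. Cadmium mid dose at 4 h, with only 2 pairs at 0.21 and 0.287, passed that limit too but is not among the 8. Over all 18 these correlations ran from -0.291 to 0.683.

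Named members were acs-2, acdh-1, hacd-1, ech-6 and cpt-1, plus up to 4 higher and 4 lower called members of largest change in each high-dose comparison, every member called at a low dose or for a difference between 4 and 8 h, and up to 4 called genes of each other list. Other members (acs-7, acs-10, acs-19, acs-21 and the remaining cpt, acdh and ech genes) and nhr-49 were named after their values were seen. Members, lists and tests were chosen with earlier results of these data known. Alternatives were the authors' own scaling, quantile normalization, no pseudocount or one 4 times as large, no filter or a stricter one, the replicate number as a block, the actin ratio as a covariate, probe sets without a cross-hybridization suffix, only the compared groups, and each array left out. Single changes were followed through them only for the members named by that rule, at high dose and at called low doses. Those of the other members, of nhr-49 and of the other lists were not. On simulated data for mercury high dose at 4 h over 15886 probe sets, the fit recovered 69% of log2 changes of 1 and 97% of changes of 2, with 7 false calls among 173. The simulation changed 100 probe sets at each size and drew independent noise. In the real comparison 3556 probe sets were called and the replicate numbers paired the arrays, so these rates may not hold there. Sequences and coordinates are not used here.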

Additional observations from a re-analysis of the deposited data

Results flagged for a closer look

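The fall of acs-1 in high mercury was larger at 8 h than at 4 h, and the difference itself passed the test: -1.09 on the log2 scale (SE 0.27, adjusted p = 0.046 by limma over all probe sets). The change was -0.89 at 4 h and -1.98 at 8 h, and all 3 exposed arrays lay below the 3 controls at both times. The second probe set of the gene changed by -1.48 and -2.11. The actin ratio was 0.855 in the mercury 4 h control and 1.31 at high dose. At 8 h it was 1.01 in the control and 1.53 at high dose. Its part in the difference was not tested.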

How the results depend on the processing

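The count of called members kept within 1.5 times of its value under most settings, and no called change of a named member reversed sign in the 15 or 16 alternatives run for each. Of the 54 such calls, 25 were kept in every alternative and 29 were lost in at least 1. Under the authors' scaling the count in high acrylamide at 4 h fell from 8 to 4, as it did with only the compared groups. Quantile normalization gave 1 call in low and 2 in mid acrylamide at 8 h where there had been 0. The replicate number as a block gave 1 and 1 there and 7 in high cadmium at 8 h in place of 4. In mid cadmium at 4 h it gave 20 in place of 12. No other count moved so far under the block. In high cadmium at 8 h the numbers did not pair the arrays. In mid cadmium at 4 h, with only 2 exposed arrays, the 2 pairs correlated at 0.21 and 0.287. Fitting only the compared groups gave 1 and 2 in low and mid acrylamide at 8 h, 6 in high cadmium at 4 h, 8 in high cadmium at 8 h and 1 in mid cadmium at 4 h. With the actin ratio as a covariate the count fell to 6 in high and 7 in mid cadmium at 4 h, to 10 in mid and 5 in high mercury at 4 h, and to 6 in mid and 10 in high mercury at 8 h. The ratio rose with dose, so that fit also removes change shared with dose. Leaving out 1 array at a time gave 4 to 7 calls in high acrylamide at 4 h and 5 to 8 at 8 h, 4 to 11 in high cadmium at 4 h and 2 to 4 at 8 h, 2 to 21 in mid cadmium at 4 h and 1 to 2 at 8 h, and 0 to 2 in low and 10 to 18 in mid mercury at 4 h. The causes of these shifts were not tested. Dim members such as cpt-3 and cpt-4 lie near the pseudocount of 51, where the array resolves little.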
